A study of Homo sapiens with 9 samples.

Results

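Serpins are a family of protease inhibitors that share a single protein fold. An inhibitory serpin presents an exposed loop to its target protease, is cut there, and springs into a new shape that traps the protease in a covalent complex. The liver makes most of the serpins of plasma, which restrain clotting, fibrinolysis, complement and the proteases of neutrophils, and some members have no inhibitory activity and instead carry hormones or chaperone collagen. In humans, clade A holds most of the secreted liver serpins, many of them side by side on the long arm of chromosome 14. Clade B holds intracellular serpins.

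The members were the rows of the expression table whose gene symbol is SERPIN followed by a letter from A to I and digits. These were 30 of 24204 symbols, of which 22 were expressed strongly enough to be tested, at 1 or more fragments per kilobase, scaled to the mapped total of the library (FPKM) in at least 3 of the 9 libraries. The chromosome 14 cluster, between SERPINA10 and SERPINA3 (chr14:94280460-94624055, GRCh38), held 9 of the 30 and 7 of the 22, and the other serpins were 21 and 15. The symbols did not depend on any measured value, but the family was chosen with the fall of SERPINA3 in these libraries already known. The values of SERPINA3 against control, and every count or sum over the family that includes it, are therefore a description.

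The libraries came from HepG2, a liver cancer cell line. All cells were infected with lentivirus for 48 h and then kept under puromycin for 48 h. The control group carried a control short hairpin RNA (shCtrl), and the other groups carried 1 of 2 hairpins against TRIB3 (shTRIB3-1 or shTRIB3-2), with 3 libraries in each group. TRIB3 encodes a pseudokinase induced by amino acid shortage. The labels describe full growth medium while the methods describe glutamine-deprived cells, so the medium at harvest is uncertain. The labels do not say whether the replicates were separate cultures, so p-values measure the spread between these libraries, which may be technical. Depth ran from 34206727 to 36311030 fragments. All 10 hepatocyte markers were at 1 FPKM or more in every library, with summed levels of 13843.9 to 14844.1 FPKM in shCtrl, 13826.2 to 14356.7 under shTRIB3-1 and 17401.0 to 18502.5 under shTRIB3-2. Of 10 markers of blood, endothelial, fibroblast and smooth muscle cells, 8 were at 0.195 FPKM or below in every library, PTPRC, CD3E, HBB and DCN among them at 0 in at least 7 libraries. ACTA2 was the highest of the list, at 39.1 to 62.9 FPKM. The 10 summed to 57.1 to 65.2 FPKM with shCtrl, 41.4 to 44.1 with shTRIB3-1 and 56.8 to 60.3 with shTRIB3-2, and their part in the serpin results was not tested.

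The hairpins target different stretches of the TRIB3 coding sequence, and their targets are shown, in capitals over their whole length, because several serpins responded differently to each hairpin.
shTRIB3-1, chr20:388072-388092, present in 4 of 4 annotated TRIB3 transcripts: TGGATGACAACTTAGATACCG
shTRIB3-2, chr20:391473-391493, present in 3 of 4 annotated TRIB3 transcripts: GCCGTGCTCTTCCGCCAGATG
TRIB3 itself was measured at 67.9, 65.8 and 66.6 FPKM in shCtrl, 34.1, 32.7 and 34.0 under shTRIB3-1, and 20.6, 20.7 and 20.4 under shTRIB3-2. Every knockdown library was below every control library, as labelled. The log2 fold change was -0.99 ± 0.03 (SE) with shTRIB3-1 and -1.70 ± 0.03 with shTRIB3-2, and TRIB3 was lower with shTRIB3-2 than with shTRIB3-1 by a log2 difference of -0.71 ± 0.03 (in limma, adjusted p = 9.54e-09).

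The promoter windows below are the 250 bases before a RefSeq transcription start (GRCh38.p14) of the 3 chromosome 14 serpins that fell most, and of SERPINH1, which differed between the hairpins. Capitals mark a match to a searched motif, on either strand.
SERPINA3, chr14:94612141-94612390, plus strand: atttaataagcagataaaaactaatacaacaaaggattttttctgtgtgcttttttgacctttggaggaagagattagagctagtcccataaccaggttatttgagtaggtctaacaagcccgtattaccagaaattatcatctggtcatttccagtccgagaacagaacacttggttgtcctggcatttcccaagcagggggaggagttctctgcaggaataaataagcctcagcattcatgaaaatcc
SERPINA11, chr14:94452801-94453050, minus strand: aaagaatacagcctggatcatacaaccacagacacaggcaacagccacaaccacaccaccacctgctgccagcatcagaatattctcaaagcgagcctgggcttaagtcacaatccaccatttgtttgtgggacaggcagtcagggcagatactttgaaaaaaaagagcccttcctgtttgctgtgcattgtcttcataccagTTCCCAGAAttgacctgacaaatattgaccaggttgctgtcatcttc
SERPINA5, chr14:94581176-94581425, plus strand: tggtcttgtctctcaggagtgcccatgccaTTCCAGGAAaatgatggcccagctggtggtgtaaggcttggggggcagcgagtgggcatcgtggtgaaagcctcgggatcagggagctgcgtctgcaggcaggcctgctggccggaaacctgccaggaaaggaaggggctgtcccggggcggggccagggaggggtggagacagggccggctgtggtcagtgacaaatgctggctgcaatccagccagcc
SERPINH1, chr11:75562003-75562252, plus strand: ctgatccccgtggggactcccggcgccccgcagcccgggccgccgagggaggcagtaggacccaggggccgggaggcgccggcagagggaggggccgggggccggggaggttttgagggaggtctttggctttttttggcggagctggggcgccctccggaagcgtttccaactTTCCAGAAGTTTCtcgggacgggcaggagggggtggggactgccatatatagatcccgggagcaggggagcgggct
Windows were found for 17 of the 22 tested serpins, 24 windows in all, and not for others such as SERPINC1, SERPINF1, SERPINF2 and SERPING1. The SERPINH1 window shown held a heat shock element, made of 3 alternating GAA and TTC units with a pair of free bases between them, 76 bases before the start. This element occurred in 0.441% of 35116 promoter windows of the genome and in no other serpin window. Another SERPINH1 window, at chr11:75562223-75562472, held none of the 5 motifs. The STAT-type motif TTCNNNGAA, found in 6.57% of all windows, lay 47 bases before the start in SERPINA11 and 220 bases before it in SERPINA5, and also occurred in the windows of SERPINA6, SERPINB1 and SERPINB8. The SERPINA3 window held none of the 5 motifs. The AP-1-type pattern was searched as TGANTCA, with any base in the middle (6.57% of all windows). It matched only as TGAATCA in the SERPINB2 window, and as TGAATCA and TGAGTCA in the SERPINB8 window. The C/EBP motif TTGCNNAA (9.05%) occurred in windows of SERPINA10, SERPINA7 and SERPINB8, and the HNF1 motif (0.296%) in that of SERPINA4. These are matches of letters and not measured binding.

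In control cells the serpins spanned about 4 orders of magnitude, led by secreted members of clade A and of clades C, D and F. SERPINA1, which encodes alpha-1-antitrypsin, the main inhibitor of neutrophil elastase, was the most abundant, at 1011.9 ± 16.5 FPKM (SD, n = 3), and it made up 36.8% ± 0.85 of the summed serpin level. SERPINA3 followed at 308.2 ± 32.1 FPKM and SERPINF1 at 269.1 ± 4.96, and the ranges of these neighbours overlapped. Next came SERPIND1, SERPINF2, SERPINA5, SERPINA7, SERPINC1 and SERPINA6, between 213.9 and 90.4 FPKM, with no overlap between neighbours. SERPINA11 was at 49.5 ± 1.89 FPKM. Neighbours that could not be ordered were SERPINB6 and SERPINA10, SERPINB9 and SERPING1, and SERPINI1 and SERPINB8. SERPINB2 was the lowest tested member, at 0.0941 ± 0.0187 FPKM.

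**Figure D1:**
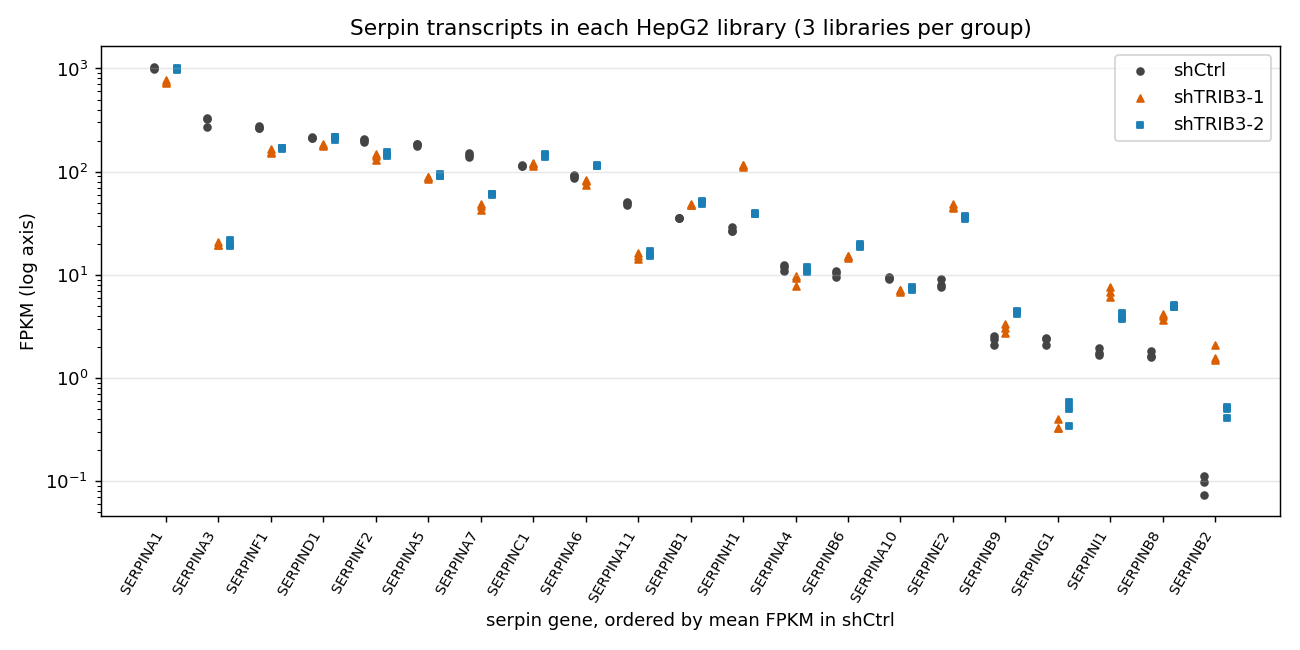
Level of the tested serpins named here in each library, in FPKM on a log axis, with genes ordered by their mean in shCtrl and 1 point per library (circles shCtrl, triangles shTRIB3-1, squares shTRIB3-2). SERPINA1 is the highest in every group, whereas SERPINA3 drops from 308.2 to 19.8 and 20.0 FPKM with the hairpins and SERPINB2 starts at 0.0941.

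The other 8 members, SERPINA9, SERPINA12, SERPINB3, SERPINB4, SERPINB5, SERPINB7, SERPINE3 and SERPINI2, had at most 5 fragments in any library and at most 0.0445 FPKM, so no change could be detected at this depth. A count of 0 allows up to 3 fragments, and SERPINB3 and SERPINB4 are near-identical copies whose reads may be exchanged. SERPINA2 and the clade B genes SERPINB10 to SERPINB13 were absent from the expression table under these symbols, so they were not analysed here.

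The summed serpin level was lower with each hairpin. The sums of the family and of the cluster include SERPINA3, whose fall was known when the family was chosen, so they are a description. SERPINA3 alone went from 308.2 FPKM in shCtrl to 19.8 with shTRIB3-1 and 20.0 with shTRIB3-2. Serpins took 0.744% ± 0.00608 of all fragments in shCtrl (SD, n = 3), which went to 0.545% ± 0.014 with shTRIB3-1 and 0.637% ± 0.013 with shTRIB3-2, and the ranges of the 3 groups did not overlap. The make-up changed as well. SERPINA3 went from 11.2% ± 1.08 of the summed serpin FPKM to 1.04% ± 0.0456 and 0.908% ± 0.0522, while the share of SERPINA1 went from 36.8% ± 0.85 to 38.9% ± 0.115 and 44.9% ± 0.473. The chromosome 14 cluster summed to 1664.9 ± 26.5 FPKM in shCtrl, 963.3 ± 28.2 under shTRIB3-1 and 1249.5 ± 27.1 under shTRIB3-2. Clade B moved the other way, from 50.2 ± 0.656 FPKM to 71.6 ± 0.666 and 79.3 ± 0.681. In bulk RNA, fewer expressing cells and less RNA per cell cannot be told apart.

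**Figure D2:**
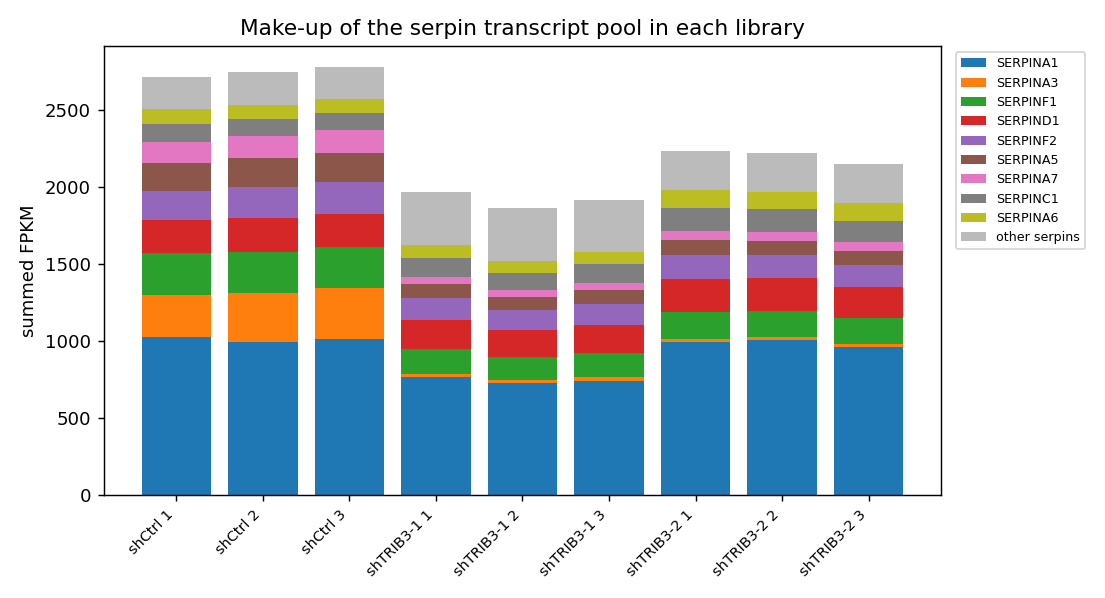
Summed serpin FPKM in each of the 9 libraries, stacked by gene, with the 9 most abundant serpins in shCtrl shown apart and all others pooled. The totals average 2746.8 FPKM in shCtrl, 1914.8 under shTRIB3-1 and 2201.3 under shTRIB3-2, and the SERPINA3 band nearly disappears in both knockdown groups.

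A gene was called when its adjusted p was under 0.05 and its log2 fold change, on the log2(FPKM + 0.1) scale, was above 1 or below -1. With shTRIB3-1, 10 of 22 tested serpins were called, 5 higher and 5 lower, against 11.5% of the 11265 genes tested (5.39% higher and 6.1% lower). With shTRIB3-2, 8 were called, 4 higher and 4 lower, against 12.3% of all genes (6.06% higher and 6.27% lower). The same 8 genes were called with both hairpins, 4 of them higher and 4 lower, against 9.06% of all genes (4.32% higher and 4.74% lower), and both comparisons share the shCtrl libraries. This count fell to 5 at a pseudocount of 1 (1 higher and 4 lower). When at least 5 FPKM was required it was 5 of 18 tested serpins (2 higher and 3 lower). SERPINI1, among the higher genes there, passed that stricter filter only through shTRIB3-1, where it is high. SERPINB2 passed the filter on low values only through shTRIB3-1 and SERPING1 only through shCtrl. Among the 20 serpins that reach the minimum in every group, 8 were called with shTRIB3-1 and 6 with shTRIB3-2. At an adjusted p under 0.05 and any fold, 21 of the 22 passed with shTRIB3-1, against 74.4% of all genes, and 19 with shTRIB3-2, against 75.9%.

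The medians of the cluster and of the remaining serpins had opposite signs. With shTRIB3-1, all 7 tested cluster genes were lower at an adjusted p under 0.05, which 41.5% of all genes were, and their median log2 fold change was -0.44. With shTRIB3-2, 4 of the 7 were lower, SERPINA6 was higher, and SERPINA1 and SERPINA4 did not pass, with a median of -0.34 against 40.5% of all genes lower. Of the other 15 tested serpins, 9 were higher, 5 lower and 1 did not pass with shTRIB3-1 (median 0.42, against 32.9% of all genes higher), and 10 were higher, 4 lower and 1 did not pass with shTRIB3-2 (median 0.49, against 35.4%). The median of all tested genes was -0.06 with shTRIB3-1 and -0.04 with shTRIB3-2. No test was made of the difference between these lists, because the split was chosen with earlier results known.

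**Figure D3:**
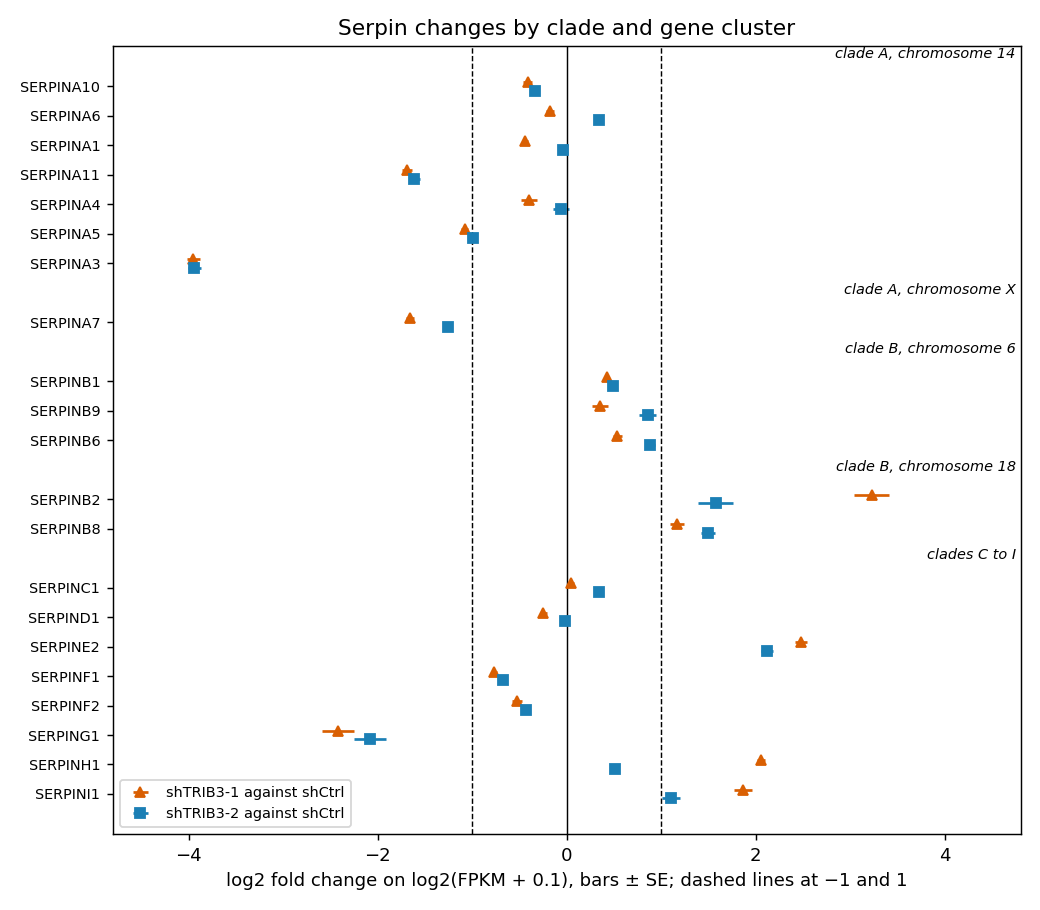
Log2 fold change against shCtrl (x axis, log2(FPKM + 0.1) scale, bars ± SE) of the tested serpins named here, grouped by clade and chromosome, for shTRIB3-1 (triangles) and shTRIB3-2 (squares), with dashed lines at -1 and 1. All 8 clade A genes lie left of 0 with shTRIB3-1 and all 5 clade B genes lie right of 0 with either hairpin.

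SERPINA3 encodes alpha-1-antichymotrypsin, an acute-phase inhibitor of cathepsin G and other chymotrypsin-like proteases. It was measured at 271.7, 320.5 and 332.3 FPKM in shCtrl, 19.4, 19.3 and 20.6 under shTRIB3-1, and 21.6, 19.3 and 19.1 under shTRIB3-2. All 6 knockdown libraries were far below the lowest control, at a mean of 6.42% and 6.48% of the control level, which are log2 fold changes of -3.95 ± 0.07 and -3.94 ± 0.07 (SE). The levels with the hairpins overlapped, and SERPINA3 fell from rank 2 to rank 13 of the 22 serpins in both groups. In the GENCODE v44 annotation, 31.7% of its exon bases (gene at chr14:94612384-94624055, plus strand) are shared on the same strand with ENSG00000273259, and whether its reads were split between the genes is not known.

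SERPINA11, a secreted clade A member, was measured at 47.5, 49.6 and 51.3 FPKM in shCtrl, 16.3, 14.3 and 15.2 under shTRIB3-1, and 17.2, 16.0 and 15.3 under shTRIB3-2. It fell with both hairpins, by log2 fold changes of -1.69 ± 0.06 and -1.61 ± 0.06 (in limma, adjusted p = 8.06e-11 and 8.79e-11). SERPINA5 encodes the protein C inhibitor, which acts on activated protein C and kallikreins, and stood at 178.5, 186.5 and 186.6 FPKM in shCtrl, 88.3, 84.3 and 88.1 under shTRIB3-1, and 95.8, 91.0 and 91.2 under shTRIB3-2. The knockdown means were 47.3% and 50.4% of the control mean. The fall was called with shTRIB3-1 (-1.08 ± 0.03, adjusted p = 5.53e-11) and missed the fold threshold with shTRIB3-2 (-0.99 ± 0.03, adjusted p = 8.16e-11), although it passed that threshold when values were rescaled to TPM (-1.01).

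The remaining cluster genes changed by less than the fold threshold. SERPINA1 was at 1026.8, 994.1 and 1014.7 FPKM in shCtrl, 766.8, 726.5 and 743.3 under shTRIB3-1, and 993.7, 1007.2 and 960.5 under shTRIB3-2. Only the shTRIB3-1 libraries lay apart from control, with a log2 fold change of -0.44 ± 0.04 (in limma, adjusted p = 2.11e-07), whereas with shTRIB3-2 it was -0.04 ± 0.04 (adjusted p = 0.366), a value whose sign depended on the scaling. SERPINA4, which encodes the kallikrein inhibitor kallistatin, showed the same order, at 11.7 ± 0.755, 8.93 ± 1.1 and 11.3 ± 0.737 FPKM. SERPINA10, which encodes the protein Z-dependent inhibitor of factor Xa, fell by a similar amount with each hairpin, from 9.37 ± 0.217 to 7.01 ± 0.13 and 7.41 ± 0.277 FPKM. SERPINA6, which encodes the cortisol carrier corticosteroid-binding globulin, went from 90.4 ± 3.27 FPKM to 79.9 ± 4.35 with shTRIB3-1 and 114.9 ± 1.8 with shTRIB3-2. It was the only cluster gene lower with shTRIB3-1 and higher with shTRIB3-2, at log2 fold changes of -0.18 ± 0.04 and 0.35 ± 0.04 (in limma, adjusted p = 0.00173 and 7.79e-06). The fall with shTRIB3-1 lost its adjusted p when libraries were centred on their medians (0.0643).

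Of 7 tested genes that flank the cluster, none was called with either hairpin, against 11.5% and 12.3% of all genes, shares that leave less than 1 call among 7 genes, so this count does not set them apart from other genes. Their log2 fold changes lay between -0.74 and 0.82 with shTRIB3-1 and between -0.84 and 0.92 with shTRIB3-2. DICER1, the nearest tested gene beyond SERPINA3, was at -0.06 ± 0.05 and 0.00 ± 0.05, and IFI27L2, the nearest before SERPINA10, at -0.02 ± 0.21 and 0.88 ± 0.21. Inside the cluster the change was uneven. SERPINA1, with log2 fold changes of -0.44 and -0.04, lies next to SERPINA11, with -1.69 and -1.61, among the tested genes.

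**Figure D4:**
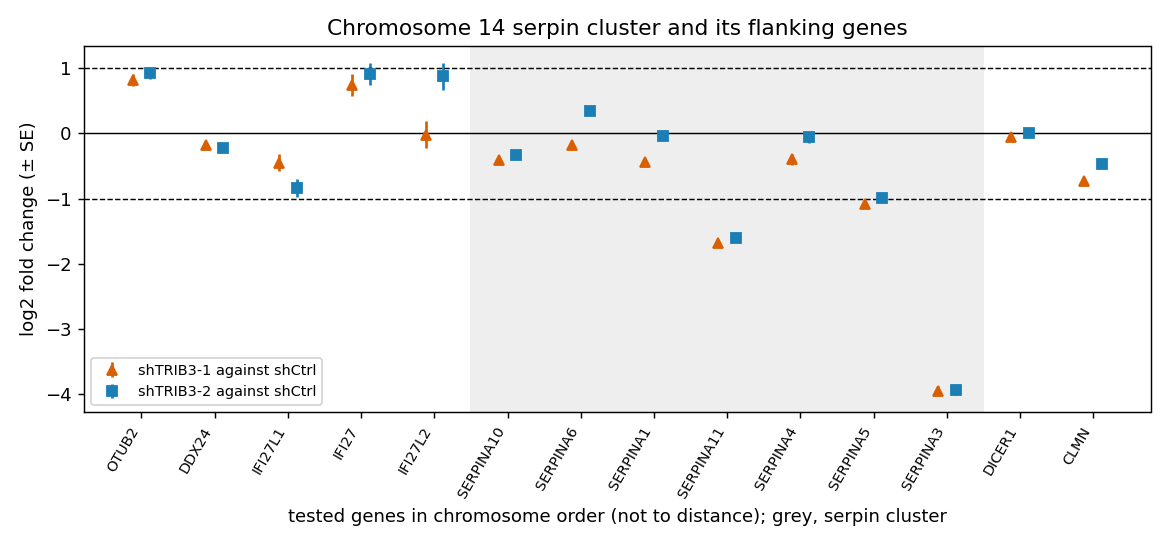
Log2 fold change (y axis, bars ± SE) of the tested genes in chromosome order, not to distance, with the serpin cluster shaded and its flanking genes on either side, for shTRIB3-1 (triangles) and shTRIB3-2 (squares). Only SERPINA11, SERPINA3 and, with shTRIB3-1, SERPINA5 pass the dashed line at -1.

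SERPINA7, on the X chromosome (chrX:106032435-106038727), is the clade A member outside the cluster, and encodes thyroxine-binding globulin, a hormone carrier without inhibitory activity. It was measured at 139.3, 144.4 and 152.0 FPKM in shCtrl, 46.8, 42.6 and 48.6 under shTRIB3-1, and 61.2, 60.7 and 59.7 under shTRIB3-2. The groups did not overlap. It fell with both hairpins, with log2 fold changes of -1.66 ± 0.05 and -1.26 ± 0.05 (in limma, adjusted p = 3.03e-11 and 1.93e-10), and less with shTRIB3-2 by 0.40 ± 0.05 (adjusted p = 3.35e-05). AGT, the angiotensinogen gene, is a clade A relative named outside the symbol pattern, and went from 425.6 ± 1.4 FPKM to 342.5 ± 14.1 with shTRIB3-1 and 426.3 ± 9.38 with shTRIB3-2.

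SERPINC1 and SERPIND1, which inhibit clotting proteases, changed by less than the fold threshold. SERPINC1, which encodes antithrombin, the main heparin-dependent inhibitor of thrombin and factor Xa, was at 116.5, 114.0 and 112.8 FPKM in shCtrl, 120.8, 113.4 and 119.2 under shTRIB3-1, and 148.4, 145.7 and 140.2 under shTRIB3-2. The shTRIB3-1 libraries overlapped the controls (0.04 ± 0.03, in limma, adjusted p = 0.273) and the shTRIB3-2 libraries were all higher (0.34 ± 0.03, adjusted p = 1.41e-06). SERPIND1, which encodes heparin cofactor II, another thrombin inhibitor, went from 213.9 ± 2.28 FPKM to 180.2 ± 4.21 with shTRIB3-1 and 211.8 ± 8.61 with shTRIB3-2. It was lower with shTRIB3-1 (-0.25 ± 0.03, in limma, adjusted p = 3.12e-05), and with shTRIB3-2 its range overlapped that of the controls.

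SERPINF2, which encodes the plasmin inhibitor alpha-2-antiplasmin, went from 199.9 ± 7.38 FPKM to 139.2 ± 9.7 and 147.9 ± 7.52, with log2 fold changes of -0.52 ± 0.05 and -0.44 ± 0.05 (in limma, adjusted p = 1.65e-06 and 7.98e-06). SERPINF1, the neighbour of SERPINF2 on chromosome 17, encodes the anti-angiogenic factor PEDF, which inhibits no protease. It fell from 269.1 ± 4.96 FPKM to 157.7 ± 5.97 and 168.7 ± 1.43 (-0.77 ± 0.03 and -0.67 ± 0.03).

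SERPING1 encodes the C1 inhibitor, which blocks the complement proteases C1r and C1s and plasma kallikrein. It was measured at 2.09, 2.46 and 2.38 FPKM in shCtrl (140 to 167 fragments), 0.328, 0.328 and 0.400 under shTRIB3-1 (21 to 26 fragments), and 0.344, 0.585 and 0.503 under shTRIB3-2 (22 to 38 fragments). Every knockdown library was below every control, at 15.2% and 20.7% of the control mean. The log2 fold changes were -2.42 ± 0.17 and -2.08 ± 0.17, and the level was low in all groups. SERPING1 passed the filter only through shCtrl, where it is high, so its calls are a description. The genes of its targets C1R and C1S were also called lower with both hairpins, at log2 fold changes of -1.54 and -1.39 for C1R and -1.06 and -1.07 for C1S.

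SERPINE2 rose the most among serpins above 5 FPKM in control cells. It encodes protease nexin-1, a cell-surface inhibitor of thrombin and urokinase. It was measured at 9.14, 7.93 and 7.62 FPKM in shCtrl, 45.6, 48.5 and 44.6 under shTRIB3-1, and 34.7, 36.1 and 37.0 under shTRIB3-2. The groups did not overlap, and the means were 5.63 and 4.36 times the control mean, with log2 fold changes of 2.48 ± 0.06 and 2.12 ± 0.06 (in limma, adjusted p = 9.88e-12 and 2.08e-11). SERPINI1 encodes neuroserpin, an inhibitor of tissue plasminogen activator best known from neurons. It stood at 1.67, 1.76 and 1.97 FPKM in shCtrl, 7.69, 6.03 and 6.78 under shTRIB3-1, and 3.91, 3.74 and 4.31 under shTRIB3-2, and rose by 1.86 ± 0.10 and 1.11 ± 0.10. With a pseudocount of 1 the rise with shTRIB3-2 was 0.83 and no longer called.

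All 5 tested clade B serpins were higher with both hairpins at an adjusted p under 0.05, against 32.9% and 35.4% of all genes, with median log2 fold changes of 0.53 and 0.89. SERPINB2 is 1 of the 5 and passed the filter only through shTRIB3-1, where it is high. The 3 genes of the chromosome 6 group, SERPINB1, SERPINB9 and SERPINB6, rose by less than the fold threshold. SERPINB1, an inhibitor of neutrophil proteases, went from 35.8 ± 0.0283 FPKM to 48.0 ± 0.446 and 50.4 ± 1.28. SERPINB6, an inhibitor of cathepsin G, went from 10.3 ± 0.678 to 14.9 ± 0.289 and 19.1 ± 0.639, and SERPINB9, the inhibitor of granzyme B, from 2.34 ± 0.223 to 3.01 ± 0.298 and 4.30 ± 0.127. For SERPINB6 and SERPINB9 the rise was larger with shTRIB3-2, by 0.35 ± 0.05 and 0.50 ± 0.09 (in limma, adjusted p = 1.26e-04 and 6.73e-04).

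The 2 tested genes of the chromosome 18 group were both called higher. SERPINB8 was at 1.64, 1.59 and 1.83 FPKM in shCtrl, 3.65, 4.13 and 3.97 under shTRIB3-1, and 4.87, 4.87 and 5.07 under shTRIB3-2, with log2 fold changes of 1.169 ± 0.074 and 1.497 ± 0.074. With a pseudocount of 1 the first of these was 0.87. SERPINB2 encodes PAI-2, an inhibitor of urokinase, and was at 0.0740, 0.0973 and 0.111 FPKM in shCtrl (6, 8 and 9 fragments), 1.56, 2.11 and 1.51 under shTRIB3-1 (121, 164 and 119 fragments), and 0.529, 0.406 and 0.503 under shTRIB3-2 (41, 32 and 40 fragments). The groups were fully separate, with log2 fold changes of 3.22 ± 0.18 and 1.58 ± 0.18. SERPINB2 passed the filter only through shTRIB3-1, where it is high, so its calls are a description. The call with shTRIB3-2 also rested on the scale, with log2 fold changes of 0.44 at a pseudocount of 1 and 0.73 after quantile normalization. On the same strand, ENSG00000289724 shares 20.0% of the exon bases of SERPINB2, and a different gene, HMSD, shares 6.42% of those of SERPINB8.

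**Figure D5:**
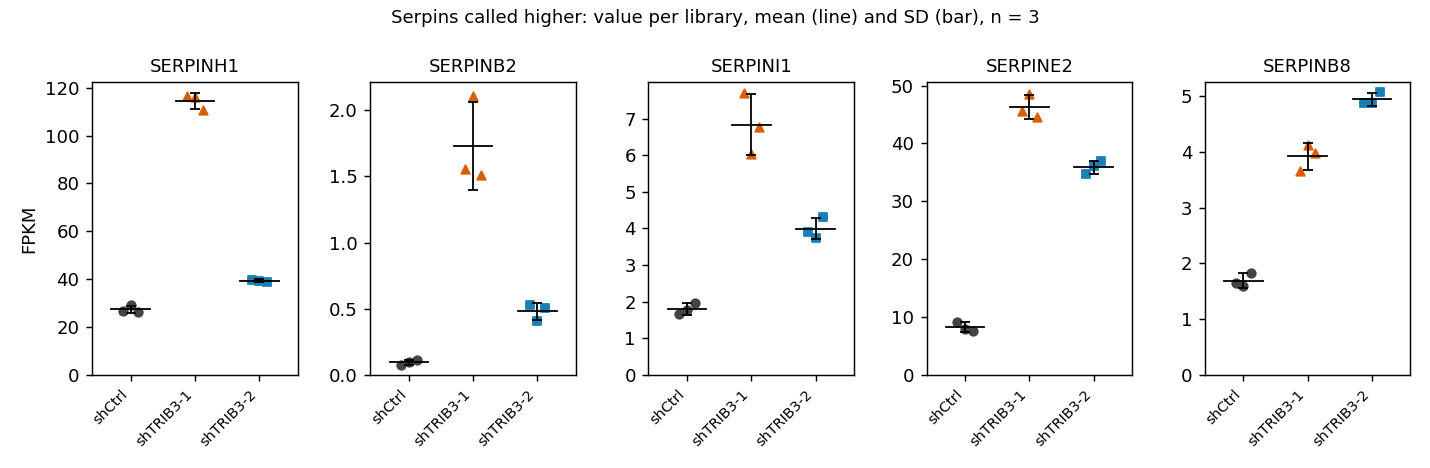
FPKM per library (points), group mean (line) and SD (bar, n = 3) of the 5 serpins called higher with shTRIB3-1, each on its own linear axis from 0. SERPINH1, SERPINB2, SERPINI1 and SERPINE2 stand higher with shTRIB3-1 than with shTRIB3-2, and SERPINB8 stands higher with shTRIB3-2.

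SERPINH1 differed between the hairpins. Its product HSP47 is a collagen chaperone of the endoplasmic reticulum and inhibits no protease. It was measured at 26.8, 29.1 and 26.4 FPKM in shCtrl, 116.5, 116.0 and 110.6 under shTRIB3-1, and 39.8, 39.1 and 38.6 under shTRIB3-2. The mean was 4.18 times the control mean with shTRIB3-1 and 1.43 times with shTRIB3-2, log2 fold changes of 2.06 ± 0.04 and 0.51 ± 0.04. The direct comparison gave -1.54 ± 0.04 for shTRIB3-2 against shTRIB3-1 (in limma, adjusted p = 1.13e-10). TRIB3 was lower with shTRIB3-2, the hairpin with the smaller SERPINH1 change, and the relation between the TRIB3 and SERPINH1 levels was not tested.

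Over the family, 2 of 22 serpins were called between the hairpins, SERPINH1 and SERPINB2 (-1.65 ± 0.18), both lower with shTRIB3-2, against 2.08% of all tested genes (0.284% higher and 1.79% lower). SERPINB2 passed the filter only through shTRIB3-1, an arm of this comparison, and its call was lost at a pseudocount of 1 (-0.88). Among the 20 serpins that reach the minimum in every group, 1 was called. At an adjusted p under 0.05 and any fold, 11 were higher with shTRIB3-2, 5 were lower and 6 did not pass, against 45.8% of all genes passing (25.1% higher and 20.7% lower). SERPINB2, SERPINH1, SERPINI1 and SERPINE2, among the lower genes, were higher than control with both hairpins. In the cluster, 4 of 7 were higher with shTRIB3-2 than with shTRIB3-1, namely SERPINA6 (0.53 ± 0.04), SERPINA1 (0.41 ± 0.04), SERPINA4 (0.34 ± 0.08) and SERPINA5 (0.09 ± 0.03). SERPINA3, SERPINA10 and SERPINA11 did not pass, with differences of 0.01 ± 0.07, 0.08 ± 0.05 and 0.08 ± 0.06. The differences of SERPINA5 and SERPINF1 lost their adjusted p under several alternatives.

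Among the proteases that serpins inhibit, members changed in both directions. Of 44 listed proteases 23 were tested, with 4 called higher and 2 lower with each hairpin (26.1% in each, against 11.5% and 12.3% of all genes). The kallikrein KLK6 rose from 0.104 ± 0.0179 FPKM to 9.97 ± 0.685 and 2.15 ± 0.418. PLG, the gene of plasminogen, rose from 0.405 ± 0.068 to 1.85 ± 0.272 and 2.13 ± 0.199. The lysosomal cathepsins CTSL and CTSK rose with log2 fold changes of 1.30 and 1.18 for CTSL and 1.18 and 1.80 for CTSK. KLK6, PLG and CTSK reached 1 FPKM only with the hairpins, so they passed the filter only through groups where they are high. They had 5 to 7, 52 to 72 and 14 to 28 fragments in shCtrl, and their calls and the share that counts them are a description. C1R and C1S were the members called lower with both hairpins. At an adjusted p under 0.05 and any fold, 9 of the 23 proteases were higher and 11 lower with shTRIB3-1. Of all genes, 32.9% were higher and 41.5% lower there. With shTRIB3-2, 12 proteases were higher and 9 lower, against 35.4% and 40.5% of all genes.

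Protease inhibitors of other families also moved in both directions. Of 43 listed, 25 were tested, with 6 called higher and 3 lower with shTRIB3-1 and 7 higher and 2 lower with shTRIB3-2 (36.0% in each, against 11.5% and 12.3% of all genes). ITIH4, an inter-alpha-trypsin inhibitor heavy chain of the acute phase, fell from 5.32 ± 0.038 FPKM to 0.507 ± 0.0231 and 0.656 ± 0.053. TIMP2, an inhibitor of matrix metalloproteinases, rose from 13.9 ± 1.08 to 49.5 ± 0.767 and 62.4 ± 1.99, and CD109, of the alpha-2-macroglobulin family, from 3.77 ± 0.243 to 13.2 ± 0.327 and 15.9 ± 0.194. The Kazal-type inhibitor SPINK1 rose by 2.58 and 1.46 and the Kunitz-type inhibitor SPINT2 by 1.75 and 1.74 on the log2 scale. SPINK1 (10 to 13 fragments in shCtrl) and SPINT2 (16 to 24) reached 1 FPKM only with the hairpins, and ITIH4 only in shCtrl. Each passed the filter only through groups where it is high, so these calls and the share that counts them are a description. BIRC5, the survivin gene, listed for its inhibitor-of-apoptosis domain, had log2 fold changes of -1.605 and -1.914.

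Of 25 receptors and cofactors of serpins 22 were tested, and 3 were called with shTRIB3-1 and 4 with shTRIB3-2 (13.6% and 18.2%, near the 11.5% and 12.3% of all genes). PLAUR, the receptor for urokinase, rose from 0.660 ± 0.15 FPKM to 4.45 ± 0.193 and 2.61 ± 0.146. It reached 1 FPKM only with the hairpins, so it passed the filter only through groups where it is high. SORL1, a sorting receptor, fell from 14.5 ± 0.727 to 5.50 ± 0.237 and 5.84 ± 0.457.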

How the data were processed

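RNA from 9 HepG2 libraries (3 each of shCtrl, shTRIB3-1 and shTRIB3-2, grouped by their labels) was analysed from 1 table of FPKM values, computed and deposited by the authors per gene symbol and library. The submitters' processing notes name HTSeq, R 3.2.0 and GRCh38, and the study's methods name STAR. The annotation release and the strand setting of the counting are not given in the sources used here, and the labels and the methods name different library kits. FPKM corrects for depth and gene length, not for a change in composition.

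Genes with FPKM of at least 1 in at least 3 libraries (11265 of 24204) were tested with limma 3.58.1 in R 4.3.3 (empirical Bayes, mean-variance trend, 3 group means) on log2(FPKM + 0.1), which understates the change of low genes. P-values are two-sided with Benjamini-Hochberg adjustment over all tested genes. A count test was not used as the main test because the values are not counts. Whole reads were recovered from the FPKM steps (99.995% of 172769 values above 0 within 0.02 of a whole number) and give the fragment numbers and an alternative fit with limma voom, which called 1364, 1469 and 270 genes over the 3 comparisons. Without molecular identifiers, the limit of 3 fragments for a count of 0 covers counting error only. SDs and SEs come from the spread between libraries. Replicate pairs differed by more than sampling noise (chi-square per degree of freedom 2.95 to 7.31). Alternatives were another pseudocount, 2 other filters, 3 other scalings, a replicate block and leaving out each library. The labels give no batch or date.

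The members and lists were chosen with earlier results of these data known. The tested serpins are named, and from the other lists at most 6 genes called with both hairpins, by mean absolute log2 fold change. Some items that enter the fit and the counts are not reported here. Coordinates and overlaps come from GENCODE v44, promoter windows from RefSeq, and hairpin targets from the study's supplement.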

Additional observations from a re-analysis of the deposited data

Results flagged for a closer look

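The effects of the hairpins differed from each other past both calling thresholds, by direct test, for 1 of the 20 serpins that reach the minimum in every group. For SERPINH1 the log2 difference of shTRIB3-2 against shTRIB3-1 was -1.544, with 3 of 3 shTRIB3-2 libraries below every shTRIB3-1 library. For SERPINB2 it was -1.649, again with 3 of 3 libraries below, on 32 to 41 fragments against 119 to 164. SERPINB2 entered the test only through its high values with shTRIB3-1, so its difference is a description, and at a pseudocount of 1 it was -0.877 and no longer called. Both genes were higher than in shCtrl with both hairpins. The cause was not tested. Groups of 3 libraries are too small for a test of single outlying libraries.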

How the results depend on the processing

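Over 17 alternative settings and 66 serpin values (22 genes in 3 comparisons), 1072 of 1092 recomputed values kept their direction and their call, 5 lost the call, 3 gained it and 12 changed sign. Of the 1072, 23 moved to the other side of an adjusted p of 0.05 without a change of call. The cause of these changes was not tested beyond what the setting itself removes. With FPKM of at least 5 required, which leaves 18 serpins, 5 were called with shTRIB3-2, 5 with both hairpins and 1 between the hairpins. SERPINI1, counted with shTRIB3-2 and with both, passed that filter only through shTRIB3-1, where it is high. With a pseudocount of 1, 5 were called with both hairpins and 1 between them, SERPINB2 was at 0.435 (shTRIB3-2) and -0.877 (between hairpins), SERPINB8 at 0.871 (shTRIB3-1) and SERPINI1 at 0.834 (shTRIB3-2). Over all genes, those settings called 745 and 780 with shTRIB3-1, 801 and 888 with shTRIB3-2 and 126 and 84 between hairpins, against 1294, 1389 and 234, and no filter gave 1999, 1941 and 417. TPM moved the median of all genes to -0.111 with shTRIB3-1 and took TRIB3 past the fold threshold there (-1.044), as it did SERPINA5 with shTRIB3-2 (-1.012).

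Signs changed for values near 0. SERPINA1 with shTRIB3-2 was 0.016 after centring on library medians and 0.116 after quantile normalization (limma, adjusted p = 0.0164). SERPIND1 with shTRIB3-2 was 0.037 and 0.017 in the same settings and -0.035 to 0.019 with 1 library left out. SERPINA3 between the hairpins was -0.016 and -0.011, and -0.045 to 0.045 with 1 library left out. SERPINC1 with shTRIB3-1 was -0.013 under TPM and -0.033 after quantile normalization. The median of the cluster with shTRIB3-1 was -0.361 centred and -0.363 quantile-normalized. The median of the other serpins was 0.368 under TPM and 0.502 centred with shTRIB3-1, 0.435 at a pseudocount of 1, 0.339 at the minimum of 5 and 0.546 centred with shTRIB3-2, and 0.129 under TPM, 0.070 centred and 0.158 quantile-normalized between the hairpins. With 1 library left out it ran from 0.356 to 0.498, 0.416 to 0.525 and 0.092 to 0.190.

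With 1 library left out, 9 to 10 serpins were called with shTRIB3-1, 7 to 9 with shTRIB3-2, 7 to 9 with both and 1 to 2 between the hairpins. The count between hairpins was 1 without any 1 of the shTRIB3-1 libraries, because SERPINB2 then missed the filter. SERPINA5 with shTRIB3-2 passed the fold threshold without shCtrl 1 (-1.009) or shTRIB3-2 1 (-1.012). Over all tested genes, samples with the same replicate number did not deviate together (correlations of -0.0742 to 0.0933). A shared effect on few genes would not show in such a correlation, so whether the numbers pair the libraries is not known. A fit with the replicate number as a block called the same 10, 8 and 2 serpins, 8 with both, and 1295 genes with shTRIB3-1. Depth limits SERPINB2, SERPING1 and the 8 untested members most.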
